A study of Mus musculus with 11 samples.

Results

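Mitochondrial ribosomal proteins are the nuclear-encoded proteins of the ribosome inside mitochondria. Their genes were taken as every symbol of the deposited probe table that begins with Mrpl or Mrps followed by a digit, Mrpl for the large and Mrps for the small subunit. The table held 73 such symbols on 123 of its 45281 probes. A probe was kept when its detection p-value was under 0.05 on at least 3 of the 11 arrays, which left 104 probes, and the brightest kept probe stood for each symbol. This gave 67 genes, 40 Mrpl and 27 Mrps, of 12512 gene symbols tested and 31508 in the table. Mrpl19, Mrpl21, Mrpl32, Mrpl45, Mrps14 and Mrps36 were detected on no array and were not tested.

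The study profiled liver RNA of female C57Bl/6 mice with Illumina bead arrays, 1 array per animal, to follow the hypometabolic state that 5′-adenosine monophosphate (5′-AMP) brings about in mice. The 11 animals fall into 3 groups: 4 mice killed 6 h after an injection of 0.5 mg 5′-AMP per g body weight, the time the study names AIHM, 4 mice killed 12 h after the same dose, the time it names RF and whose samples are titled Rev Flip, and 3 control mice that received vehicle. The labels do not explain the words Rev Flip or give a time of death for the control mice, so the time of day at death, and whatever else Rev Flip marks, cannot be told apart from treatment. All p-values measure the spread between these animals.

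Mitochondrial ribosomes translate the few proteins encoded by mitochondrial DNA, all of them subunits of the respiratory chain and ATP synthase. Some of their proteins have counterparts in bacterial ribosomes, while others are found in mitochondria alone. The liver is rich in mitochondria, and the genes for these proteins lie scattered over the nuclear genome, where NRF-1, ETS-family factors such as NRF-2 (GABP), and YY1 are known regulators of genes for mitochondrial proteins.

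ETS, NRF-1 and YY1 motifs stood in a larger share of the promoter windows of these genes than of all promoter windows, which was not tested. RefSeq promoter windows (GRCm38.p6, 250 bases before to 50 after the annotated start) were matched by symbol for 59 of the 67 genes, not for Mrpl4, Mrpl13, Mrpl15, Mrpl38, Mrpl54, Mrps28, Mrps34 and Mrps35. Both strands were searched for NRF-1 (GCGCANGCG), ETS (CCGGAAG), YY1 (AAGATGGCG), E-box (CACGTG), CRE (TGACGTCA) and AP-1 (TGANTCA). The 59 genes had passed the detection filter, while the 17492 windows of protein-coding genes were not limited to detected genes. The shares therefore compare sets that also differ in this filter. The ETS motif stood in 22 of the 59 windows (37.3%), against 11.9% of the 17492 windows. NRF-1 stood in 13 (22.0%, against 8.83%) and YY1 in 7 (11.9%, against 1.94%), so that 35 windows (59.3%) held at least 1 of these 3 motifs, against 20.3% of all windows. The E-box was present in 5 (8.47%, against 7.9%), CRE in 2 (3.39%, against 2.34%) and AP-1 in 3 (5.08%, against 7.08%). The median GC content was 58.3% in these windows and 56.3% in all windows, and a match is a run of letters, not a measured binding site. The median centre of the matches, counted from the start site at 0, was -19.5 bases for ETS, -38 for NRF-1 and 18 for YY1.

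**Figure D1:**
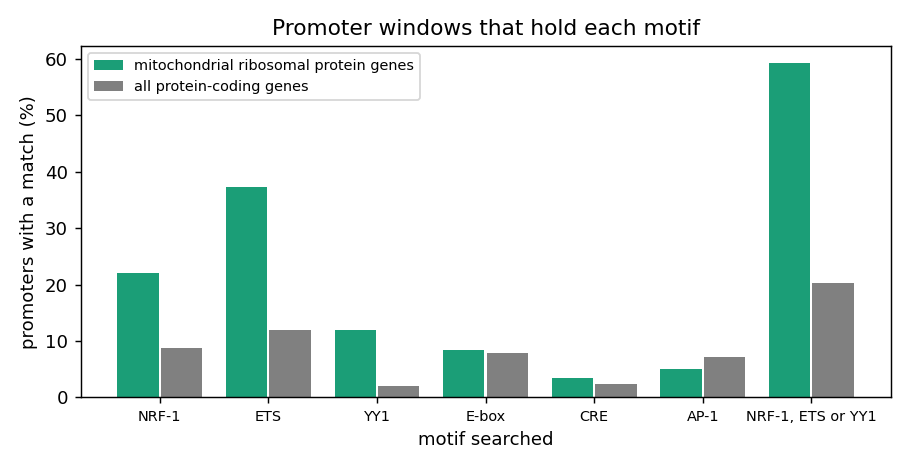
Share of promoter windows (%, vertical axis) that hold each motif (horizontal axis), green bars for the 59 mitochondrial ribosomal protein genes with a window and grey bars for all 17492 protein-coding genes. The grey set was not limited to genes that passed the detection filter. The ETS bar stands at 37.3% against 11.9%, and the AP-1 bar at 5.08% is below the grey one at 7.08%.

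These 6 windows belong to genes among those with the smallest p-values in the comparisons that follow, and each window holds a match. Matches to the 6 motifs are in capitals, and each window is on the strand of its gene. Mrpl23 and Mrps6 are also among the genes of smallest p, but their windows held no match and are not printed. Of the other genes named below, Mrps2, Mrpl24, Mrpl40, Mrps10 and Mrps30 held no match either. Mrpl49 (chr19:6057706-6058005, minus strand) held only the CRE, Mrpl12 (chr11:120484387-120484686, plus strand) 1 NRF-1 match, Mrpl17 (chr7:105811038-105811337, minus strand) 2 NRF-1 matches and 1 ETS match, Mrpl43 (chr19:45006393-45006692, minus strand) and Mrpl53 (chr6:83108858-83109157, plus strand) 2 ETS matches each, and Mrpl33 (chr5:31613701-31614000, plus strand) 1 ETS and 1 AP-1 match.
Mrpl49: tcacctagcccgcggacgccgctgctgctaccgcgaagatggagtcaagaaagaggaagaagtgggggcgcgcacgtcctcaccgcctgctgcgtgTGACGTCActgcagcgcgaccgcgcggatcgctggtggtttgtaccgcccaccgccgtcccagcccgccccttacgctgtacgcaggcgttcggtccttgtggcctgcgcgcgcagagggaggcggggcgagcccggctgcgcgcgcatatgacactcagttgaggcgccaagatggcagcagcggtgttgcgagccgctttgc
Mrpl12: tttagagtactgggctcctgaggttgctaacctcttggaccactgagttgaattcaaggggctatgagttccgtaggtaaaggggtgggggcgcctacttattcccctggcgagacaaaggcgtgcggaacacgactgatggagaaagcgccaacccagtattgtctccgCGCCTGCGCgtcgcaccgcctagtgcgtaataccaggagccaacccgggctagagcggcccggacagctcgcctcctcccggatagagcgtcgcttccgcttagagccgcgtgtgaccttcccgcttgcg
Mrpl17: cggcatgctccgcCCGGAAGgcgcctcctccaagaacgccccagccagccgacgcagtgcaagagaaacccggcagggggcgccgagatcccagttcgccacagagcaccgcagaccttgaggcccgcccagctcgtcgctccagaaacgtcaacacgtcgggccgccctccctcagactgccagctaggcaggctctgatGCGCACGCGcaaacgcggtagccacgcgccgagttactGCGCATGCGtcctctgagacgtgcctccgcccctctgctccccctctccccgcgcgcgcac
Mrpl43: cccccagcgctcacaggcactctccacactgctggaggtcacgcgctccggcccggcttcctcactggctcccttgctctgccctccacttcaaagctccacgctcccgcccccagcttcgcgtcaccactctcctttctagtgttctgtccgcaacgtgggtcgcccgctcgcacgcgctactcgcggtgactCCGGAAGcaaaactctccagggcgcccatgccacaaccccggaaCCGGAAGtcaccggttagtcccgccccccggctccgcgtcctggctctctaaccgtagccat
Mrpl53: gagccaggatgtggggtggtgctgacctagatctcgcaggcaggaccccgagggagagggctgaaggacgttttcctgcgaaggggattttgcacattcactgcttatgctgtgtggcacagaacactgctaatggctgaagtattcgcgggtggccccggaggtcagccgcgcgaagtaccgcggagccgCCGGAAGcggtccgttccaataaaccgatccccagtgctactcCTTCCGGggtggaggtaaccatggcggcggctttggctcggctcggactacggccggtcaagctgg
Mrpl33: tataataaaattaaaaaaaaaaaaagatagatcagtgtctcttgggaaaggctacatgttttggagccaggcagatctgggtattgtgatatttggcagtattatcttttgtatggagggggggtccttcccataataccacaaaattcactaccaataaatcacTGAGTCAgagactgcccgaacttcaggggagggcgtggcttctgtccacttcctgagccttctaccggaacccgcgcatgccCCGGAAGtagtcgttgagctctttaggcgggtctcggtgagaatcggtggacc
Mrpl49 starts back to back with Fau, which encodes the cytosolic ribosomal protein S30, and Mrpl43 with Twnk, which encodes the mitochondrial DNA helicase Twinkle. Such a partner on the opposite strand, with starts at most 500 bases apart in RefSeq, was present for 17 of the 59 genes (28.8%), against 1317 of 17492 (7.53%). The 17492 genes were again not limited to detected ones, and the difference was not tested.

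No single mitochondrial ribosomal protein gene passed the test 6 h after 5′-AMP, while most had a value below the control. With limma's moderated test and Benjamini-Hochberg adjustment over all genes, 0 of 67 genes had an adjusted p under 0.05, against 1.13% of all genes. Before adjustment, 19 genes were lower at p under 0.05 (28.4%, against 8.68% of all genes) and 1 was higher (1.49%, against 8.06%). All 6 h arrays lay below all control arrays for 17 genes (25.4%, against 7.04%) and above them for 1 (1.49%, against 6.84%). The fitted log2 change was below 0 for 49 genes (73.1%, against 52.6% of all genes), its median was -0.16 (against -0.02), and it ran from -0.74 to 0.33. When arrays were scaled only to a common median, 35 of the 67 genes were below 0. Their median was then -0.01, against 0.12 over all genes. In bulk liver RNA, fewer cells of a type and less RNA per cell cannot be told apart.

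The gene with the smallest p was Mrpl49, a large-subunit protein without a bacterial counterpart. Its normalised log2 signal was 10.92, 10.72, 10.53 and 10.81 on the 6 h arrays, against 11.16, 11.18 and 11.36 on the control arrays. Every 6 h array was below every control array, with a log2 change of -0.49 ± 0.13 (standard error; limma adjusted p = 0.108). Mrpl43, another protein of the mitochondrial ribosome alone, had 10.16, 10.28, 10.28 and 10.36 at 6 h, against 10.74, 10.69 and 10.59 in controls. These groups did not overlap either (-0.41 ± 0.12, limma adjusted p = 0.127), and a second probe for Mrpl43 gave -0.30.

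The next 3 genes by p-value also had all 6 h arrays below the controls. Mrpl53, also specific to mitochondria, had 10.10, 10.59, 10.20 and 10.37 at 6 h, against 10.66, 10.88 and 10.87 in controls (-0.49 ± 0.14, limma adjusted p = 0.134). Mrpl17, the counterpart of bacterial L17, had 11.97, 12.18, 11.64 and 11.94 at 6 h, against 12.49, 12.27 and 12.42 in controls (-0.46 ± 0.14, limma adjusted p = 0.134). The margin for Mrpl17 was narrow, since 6 h array 2 came within 0.1 of the lowest control. Mrpl2, the counterpart of bacterial L2 that lies near the site of peptide bond formation, had 11.29, 11.51, 10.91 and 11.31 at 6 h, against 11.67, 11.64 and 11.98 in controls (-0.51 ± 0.16, limma adjusted p = 0.143). In all 3 the lowest 6 h value was on array 1 or 3.

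The numerically largest values, -0.74 ± 0.31 for Mrpl52, -0.72 ± 0.39 for Mrpl20 and -0.59 ± 0.30 for Mrps25, came with wide spread; these 3 were singled out after their values were seen. Mrpl20, the counterpart of bacterial L20, had 8.18, 9.48, 8.94 and 10.14 at 6 h, against 10.28, 10.03 and 9.42 in controls. Its groups overlapped, and array 1 alone was over 1 log2 unit below every control. Mrpl52 followed the same order, with 9.58, 10.60, 10.12 and 11.29 at 6 h, against 11.36, 11.27 and 10.79 in controls. Mrps25 had 6.08, 7.20, 6.41 and 7.42 at 6 h, against 7.36, 7.56 and 7.19 in controls, and was among the dimmest probes. Its 2 other kept probes, dimmer still, gave 0.02 and -0.14 at 6 h, and -0.63 and -0.61 at 12 h.

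Among the few genes with higher values, Mrps2, the counterpart of bacterial S2, was the only one whose 6 h arrays all lay above the controls. It had 8.82, 8.60, 8.59 and 8.62 at 6 h, against 8.44, 8.22 and 8.32 in controls (0.33 ± 0.12, limma adjusted p = 0.209). Mrps30, which structures place in the large subunit despite its symbol, gave 0.24, Mrpl33 0.23, Mrpl35 0.21 and Mrpl9 0.19, and in these 4 the groups overlapped. Dimmer kept probes gave 0.34 for Mrps33 and 0.30 for Mrps31 at 6 h, where the probes used gave -0.06 and 0.05. With every kept probe on its own, 68 of 104 were below 0 at 6 h.

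**Figure D2:**
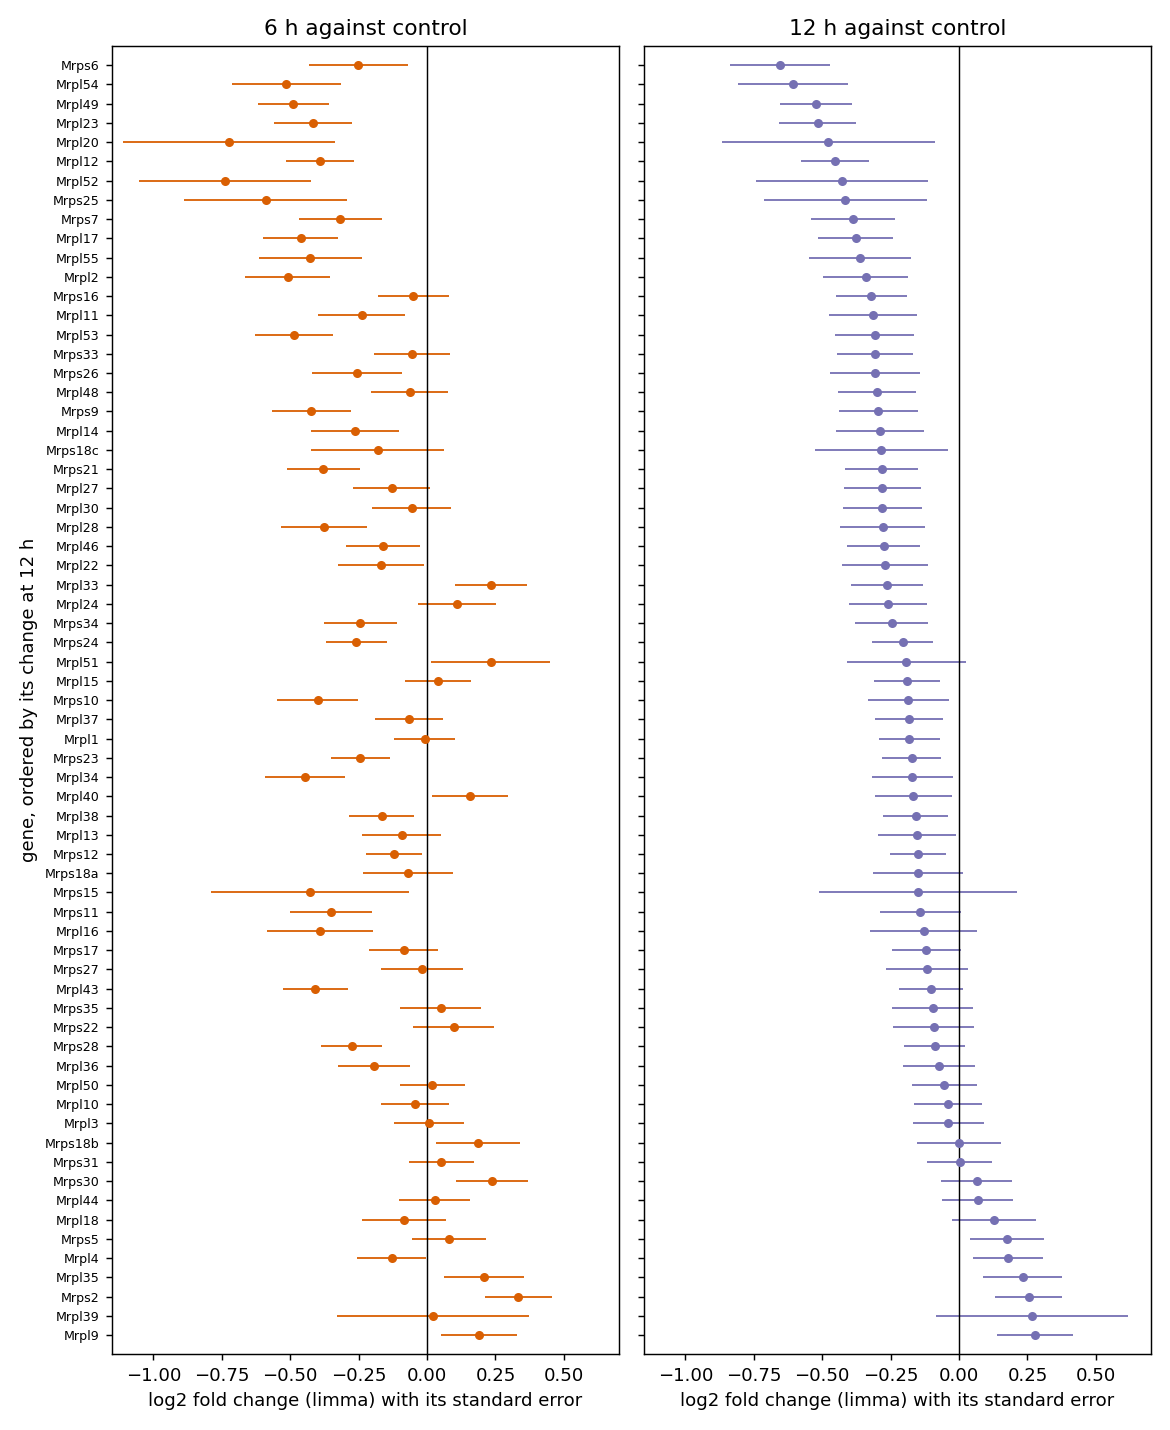
Log2 fold change with its standard error (horizontal axis) of each of the 67 genes (vertical axis, ordered by the 12 h value), for 6 h against control on the left and 12 h against control on the right. Most points lie left of 0 in both panels, 49 at 6 h and 56 at 12 h, and none passed an adjusted p of 0.05.

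At 12 h the values were again mostly below the control and were more alike between genes, and again no gene passed. The count was 0 of 67 at an adjusted p under 0.05 in limma, against 3.23% of all genes. Before adjustment, 10 genes were lower (14.9%, against 10.4%) and 0 higher (against 7.29%). All 12 h arrays lay below all control arrays for 22 genes (32.8%, against 11.7%) and above them for 0 (against 9.02%). The fitted change was below 0 for 56 genes (83.6%, against 56.4%), with a median of -0.19 (against -0.04) and a range of -0.65 to 0.28. Both times were set against the same 3 control arrays, so the 6 h and 12 h values are not independent of each other.

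Mrpl49 came closest to the threshold. It had 10.68, 10.64, 10.92 and 10.59 at 12 h, against the control values of 11.16, 11.18 and 11.36 (-0.52 ± 0.13, limma adjusted p = 0.0526). All 12 h values lay at least 0.2 below the controls, and the 95% interval of the change ran from -0.81 to -0.24. The 3 other kept probes for Mrpl49, all dim at mean signals of 138 to 149 against 1964 for the one used, gave -0.06, -0.12 and -0.31 at 12 h and -0.03, 0.27 and 0.03 at 6 h. With the mean of its 4 probes the change of Mrpl49 was -0.25 at 12 h and -0.06 at 6 h.

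A further 3 genes had adjusted p-values between 0.07 and 0.08. Mrpl23, the counterpart of bacterial L23 at the exit of the nascent chain, had 11.70, 11.72, 11.91 and 11.68 at 12 h, against 12.25, 12.16 and 12.40 in controls (-0.52 ± 0.14, limma adjusted p = 0.0752). Mrpl12, the stalk protein that contacts translation factors and in human cells also binds the mitochondrial RNA polymerase, had 11.43, 11.31, 11.42 and 11.26 at 12 h, against 11.83, 11.65 and 11.94 in controls (-0.45 ± 0.12, limma adjusted p = 0.0769). Both were also wholly below the controls at 6 h, at -0.42 and -0.39. Mrps6, the counterpart of bacterial S6, had 8.0, 7.66, 8.05 and 7.90 at 12 h, against 8.57, 8.62 and 8.47 in controls (-0.65 ± 0.18, limma adjusted p = 0.0793). Its 6 h arrays did overlap the controls, at 8.03, 8.42, 8.0 and 8.77 (-0.25 ± 0.18). Mrpl54, specific to mitochondria, had 10.21, 10.08, 10.31 and 10.19 at 12 h, against 10.78, 10.63 and 11 in controls (-0.61 ± 0.20, limma adjusted p = 0.137).

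Whether the genes near the threshold passed depended on single arrays and on the settings of the fit. Without 6 h array 3, which enters the shared estimate of the spread, Mrpl49 and Mrpl23 passed at 12 h (limma adjusted p = 0.0388 and 0.0403). Without 6 h array 4, Mrps6 passed (0.0267), and without 12 h array 3, Mrpl49 passed (0.0405). In these fits 4.04%, 3.95% and 2.84% of all genes passed at 12 h. Over 24 alternatives the limma adjusted p of Mrpl49 ran from 0.0201 to 0.494, that of Mrpl23 from 0.0299 to 0.294 and that of Mrps6 from 0.0202 to 0.195. These 3 genes passed in 8, 5 and 3 of the 24, of which 2, 1 and 1 left out an array.

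Higher values at 12 h were few among the probes used. Mrps2 had 8.55, 8.42, 8.78 and 8.56 at 12 h, against 8.44, 8.22 and 8.32 in controls (0.25 ± 0.12, limma adjusted p = 0.305). Mrpl9 gave 0.28, Mrpl35 0.23, and Mrpl4 and Mrps5 0.18 each, and for all 5 the groups overlapped. The 2 other kept probes for Mrps5 gave -0.15 and 0.10 at 12 h. Their mean signals were 523 and 111, against 651 for the probe used. The second kept probe for Mrpl9 gave 0.18. Some dimmer kept probes were higher at 12 h than the probe used. They gave 0.41 and 0.53 for Mrps18b (0.00 with the probe used), 0.39 for Mrps31 (0.00) and 0.41 for Mrpl3 (-0.04). With every kept probe on its own, 79 of 104 were below 0 at 12 h.

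**Figure D3:**
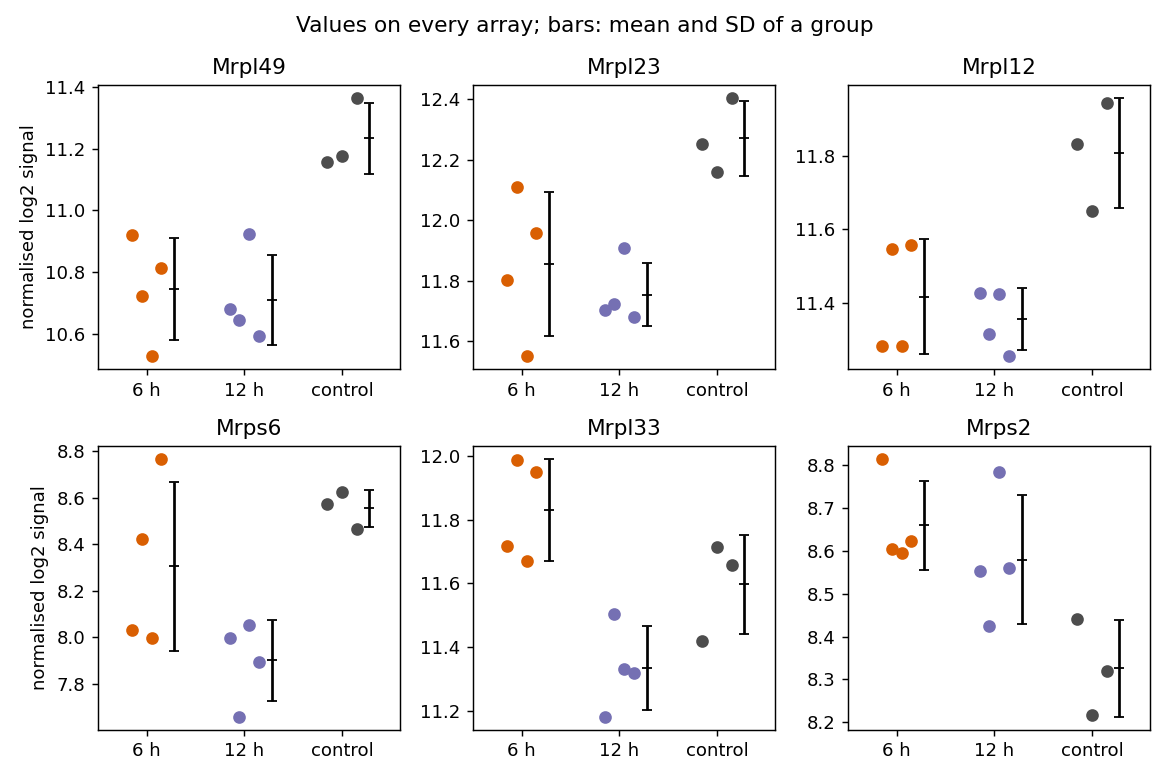
Normalised log2 signal (vertical axis, its range set for each gene) of 6 genes on every array, with groups on the horizontal axis; points are arrays, bars the mean and SD of 4, 4 and 3 arrays. Mrpl49, Mrpl23 and Mrpl12 lie below the controls at both times, Mrps6 at 12 h, Mrpl33 is lower at 12 h than at 6 h, and Mrps2 lies above the controls at 6 h.

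Between 12 h and 6 h the genes had no common direction. In limma 0 of 67 genes passed, against 1.22% of all genes, and the median change was -0.04 (against -0.01), with 38 of 67 below 0 (56.7%, against 52.2%). Before adjustment 5 genes were lower at 12 h (7.46%, against 9.61%) and 2 higher (2.99%, against 5.9%). All 12 h arrays lay below all 6 h arrays for 6 genes (8.96%, against 6.33%) and above them for 2 (2.99%, against 3.48%).

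Mrpl33, the counterpart of bacterial L33, had the smallest p. It had 11.18, 11.50, 11.33 and 11.32 at 12 h, against 11.72, 11.99, 11.67 and 11.95 at 6 h (-0.50 ± 0.12, limma adjusted p = 0.0760). The times did not overlap each other, the control values of 11.42, 11.71 and 11.66 overlapped both, and a second probe of like brightness gave -0.35. The next lower values were -0.37 for Mrpl24, -0.40 for Mrps6, -0.32 for Mrpl40 and -0.27 for Mrps16. Mrpl43 had 10.74, 10.41, 10.48 and 10.66 at 12 h, wholly above its 6 h arrays (0.31 ± 0.11, limma adjusted p = 0.202). Mrpl4 gave 0.31, Mrpl34 0.28, Mrps10 0.21 and Mrps28 0.19, none of which passed.

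**Figure D4:**
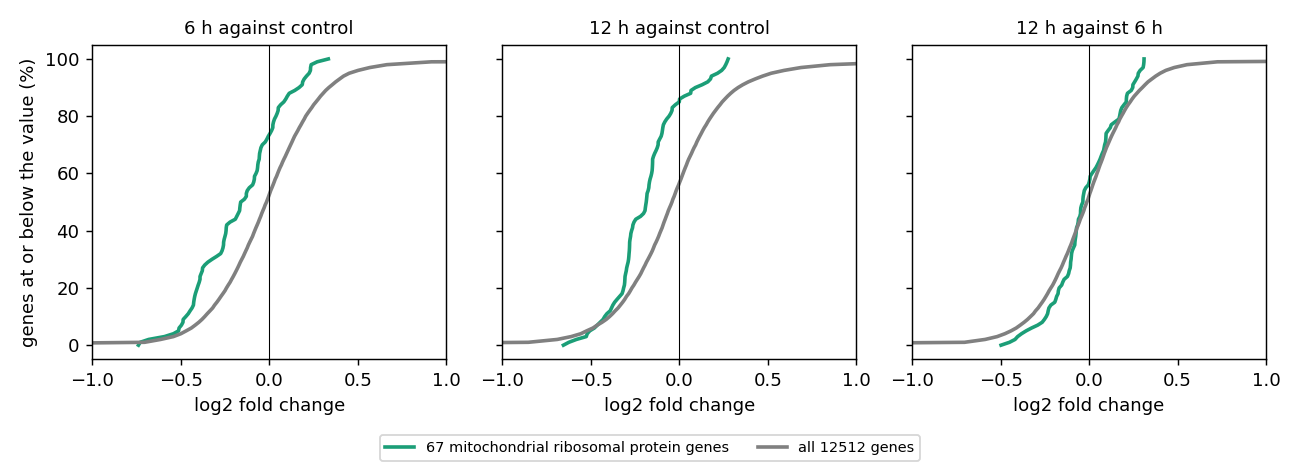
Share of genes (%, vertical axis) at or below each log2 fold change (horizontal axis, shown from -1 to 1) in the 3 comparisons, green for the 67 mitochondrial ribosomal protein genes and grey for all 12512 genes. The green curve lies left of the grey one over most of its course in the first 2 panels (medians -0.16 and -0.19 against -0.02 and -0.04) and close to it in the last (-0.04 against -0.01).

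The Mrpl and Mrps genes, split by symbol alone, and both evolutionary classes had medians below 0 at 6 h and at 12 h. At 6 h the median was -0.15 over the 40 Mrpl genes and -0.18 over the 27 Mrps genes, and at 12 h -0.23 and -0.15. The 43 genes with bacterial counterparts had medians of -0.18 at 6 h and -0.19 at 12 h, and the 24 specific to mitochondria -0.06 and -0.18. Genes with an ETS match in the promoter window had medians of -0.13 at 6 h and -0.23 at 12 h, and those without one -0.19 and -0.19. With an NRF-1 match the medians were -0.17 and -0.28, and without one -0.15 and -0.18. The 7 genes with a YY1 match had -0.07 and -0.14, and the 52 without one -0.16 and -0.27. Of the 17 back-to-back partners 9 were tested, among them Mrpl46 and Mrps11, which are partners of each other. None of the 9 passed at 6 h or 12 h, against 1.13% and 3.23% of all genes. Their medians were -0.09 and -0.04, with 6 of the 9 below 0 at each time. At 12 h they ran from -0.53 for Zfp661 to 0.27 for Sars2. Fau, the partner of Mrpl49, gave -0.09 at 6 h and -0.33 at 12 h.

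Other gene groups shared the small negative values. The 71 cytosolic ribosomal protein genes had medians of -0.13 at 6 h and -0.20 at 12 h, and the 68 genes for nuclear-encoded subunits of the respiratory chain and ATP synthase -0.16 at both times, with 0 genes passing against control in limma in either list. No difference between the lists was tested.

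The arrays within a group differed, most of all at 6 h. The median deviation of the 67 genes from their control means was -0.25, -0.00, -0.36 and -0.08 on the 6 h arrays, -0.17, -0.23, -0.15 and -0.24 on the 12 h arrays, and 0.00, -0.06 and 0.07 on the control arrays. Thus 6 h arrays 2 and 4 lay within 0.1 of the control mean, arrays 1 and 3 further below it, and the 12 h arrays lay close together (mean -0.20, SD 0.04, n = 4, against -0.17, SD 0.16, n = 4 at 6 h). The respiratory genes had -0.23, -0.01, -0.21 and -0.01 on the same 6 h arrays. The cytosolic ones had -0.21, -0.07, -0.31 and 0.05. The 6 h arrays near the control were also the brightest, with mean signals of 635 and 607, against 468 and 458 for arrays 1 and 3, 431, 460, 412 and 494 at 12 h, and 511, 542 and 422 in controls. With brightness as a covariate the median was -0.19 at 6 h and -0.17 at 12 h.

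**Figure D5:**
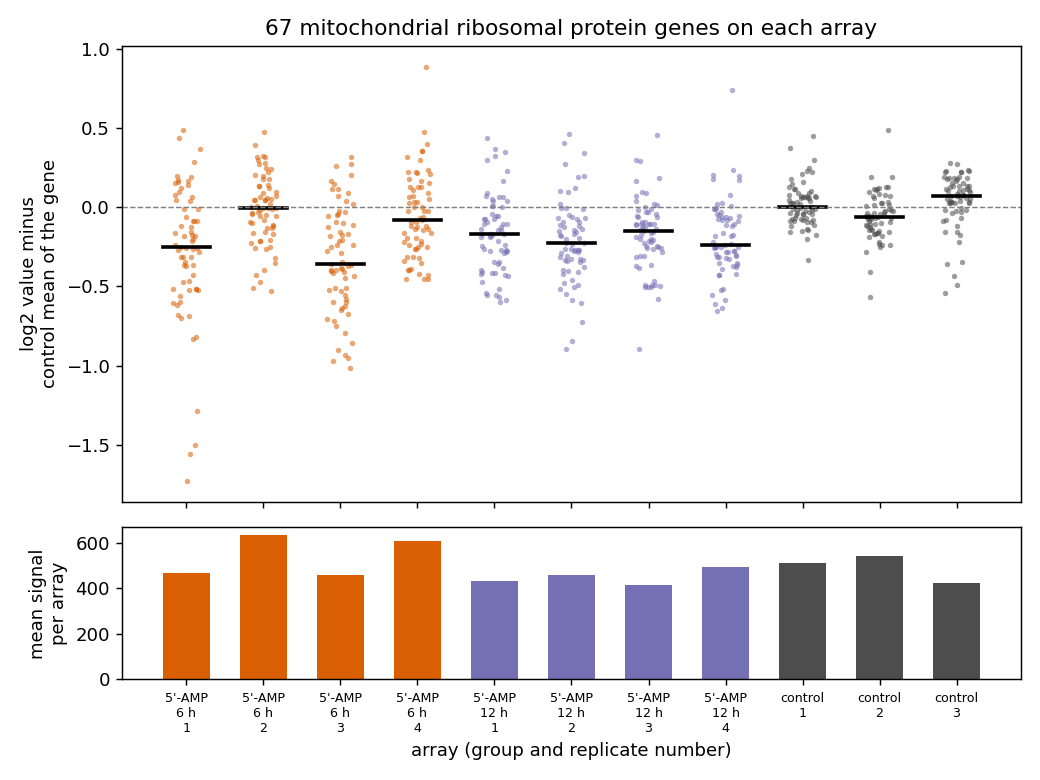
Top, log2 value of each of the 67 genes on each array minus the mean of that gene over the controls (vertical axis), with black bars at the median; bottom, the mean signal of the array in scanner units, starting at 0. The medians of 6 h arrays 2 and 4 (-0.00 and -0.08) lie near the controls, where their mean signals of 635 and 607 are also the highest of all 11 arrays.

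The genes varied together over the arrays. After removal of group means, the median pairwise correlation of the 67 genes over the 11 arrays was 0.318, and 72.6% of 2211 pairs were above 0. The arrays share hybridisation, chip and brightness, and no like value over all genes is given, so this is a description only. A first principal component of the 67 genes, taken with group means kept in, held 50.2% of their variance. Its scores were -2.72, 0.58, -2.0 and 1.43 on the 6 h arrays and -0.44, -0.84, -0.56 and 0.31 on the 12 h arrays. The control arrays had 1.79, 1.40 and 1.05. Likeness to Mrpl49, chosen for its smallest p at 12 h, was also taken with group means kept in. A shared difference between groups raises such a correlation, so these values too are a description only. The genes most like Mrpl49 over the 11 arrays were Mrpl23 (Pearson r = 0.888), Mrpl12 (0.853) and Mrps21 (0.847). The least like was Mrps5 (-0.628). Mrps21 encodes the counterpart of bacterial S21.

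The 11 arrays lay on 5 chips, and the negative medians were present within each chip that held treated and control arrays. At 6 h they were -0.18, -0.30 and -0.09 on 3 chips, and at 12 h -0.14 and -0.23 on 2. Between 12 h and 6 h they were 0.11 and -0.15 on 2 chips. For Mrpl49 the within-chip differences were -0.54, -0.65 and -0.35 at 6 h, and -0.53 and -0.56 at 12 h. With the chip as a block in the fit the medians were -0.15 at 6 h, -0.19 at 12 h and 0.00 for 12 h against 6 h.

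Of the mitochondrial ribosomal proteins tested under other symbols, some had values below 0 and others above. Of 6 such symbols searched for, Dap3, Chchd1 and Ict1 were tested. Gadd45gip1 did not pass the detection filter, and Aurkaip1 and Ptcd3 were not in the table. Dap3, a GTP-binding protein of the small subunit, gave -0.30 ± 0.12 at 6 h and -0.26 ± 0.12 at 12 h, Chchd1, also of the small subunit, -0.14 ± 0.15 and -0.41 ± 0.15, and Ict1, a peptidyl-tRNA hydrolase in the large subunit, -0.40 ± 0.19 and -0.33 ± 0.19. None passed. RefSeq lists the table's 4833424P18Rik as an older name of Mrpl47, the counterpart of bacterial L29. It averaged 9.06 at 12 h and 9.60 at 6 h, against 9.58 in controls, which is -0.53 ± 0.13 at 12 h against control (limma adjusted p = 0.0516) and -0.54 at 12 h against 6 h (0.0540). Another 2 older names gave 0.17 at 6 h and 0.00 at 12 h (D10Ertd322e, now Mrpl42) and 0.23 and 0.25 (Mrp63, now Mrpl57).

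The rest of the mitochondrial translation pathway showed 1 call against control, at 12 h. The symbols searched for included older names beside current ones, so a gene can stand under more than 1 of them. The 4 translation factors tested of 12 symbols, among them Tufm, which brings charged tRNAs to the ribosome (0.00 at 6 h and -0.06 at 12 h), had none. The 8 aminoacyl-tRNA synthetases tested of 22 symbols had none either. In limma, 1 of the 13 genes for ribosome assembly and mitochondrial RNA tested of 27 symbols was lower at 12 h, Mterf, whose product binds the mitochondrial rRNA gene region. Mterf had 6.86, 6.78, 6.42 and 6.36 at 12 h, against 7.62, 7.38 and 7.54 in controls (-0.91 ± 0.16, limma adjusted p = 0.00715). RefSeq now names it Mterf1a and lists Mterf1b beside it, so the gene behind the probe is uncertain. The call was lost with the chip as a fixed block, at -0.98 (limma adjusted p = 0.0917, range over alternatives 0.00473 to 0.0917).

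Of 9 nuclear regulators of mitochondrial genes tested of 10, only Myc, a transcription factor that promotes ribosome production, passed at 12 h. Its log2 signal was 6.57, 6.41, 5.73 and 5.78 at 12 h, against 4.79, 4.56 and 4.68 in controls, where its probe was detected on none of the 3 arrays. Taking the lowest detected signal in place of the control values, Myc was at least 1.67-fold higher, a bound that was not itself tested. The test used the undetected control values as they were (limma adjusted p = 0.0181, range over alternatives 0.00458 to 0.140). The call was lost without control array 1, 2 or 3 (0.0574, 0.0729 and 0.0692), without 12 h array 1 or 2 (0.0567 and 0.0566), with the authors' normalised values, without the detection filter and with the chip as a fixed block. Ppargc1a, the coactivator of mitochondrial biogenesis, gave -0.27 at 6 h and -0.28 at 12 h, Esrra, a nuclear receptor it works with, -0.44 and -0.36, and Nrf1, the factor of the NRF-1 motif, -0.02 and -0.09, none of which passed. These 3 are named outside the rule for naming genes, and Esrra had the lowest 6 h value of the list. Over all 9 regulators the median was -0.02 at 6 h, with 6 below 0, and -0.08 at 12 h, with 7 below 0.

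Of 8 hepatocyte markers, Apoa1, Ttr, Serpina1a, Cps1 and Ass1 passed the detection filter, while Fgb and Tat did not. The 5 tested summed to normalised signals of 107093 to 132744 at 6 h, 122572 to 132709 at 12 h and 122108 to 130449 in controls. The 4 red cell markers tested of 8 summed to 56098 to 70402 at 6 h and 50519 to 61345 at 12 h, against 26337 to 51163 in controls, and none passed. The 2 neutrophil markers tested of 7 summed to 164 to 542 at 6 h and 150 to 326 at 12 h, against 70.2 to 125 in controls, with 1 higher at each time. The 7 macrophage markers tested of 8 summed to 2409 to 5950 at 6 h and 2097 to 3263 at 12 h, against 3394 to 4669 in controls, and none passed. The 4 stellate cell markers tested of 6 summed to 9339 to 11600 at 6 h and 7791 to 8979 at 12 h, against 10182 to 11465 in controls, with 1 lower at 12 h. The 4 T cell markers tested of 6 summed to 151 to 271 at 6 h and 122 to 151 at 12 h, against 185 to 215 in controls. The single B cell marker tested of 5, Cd79b, had 50.8 to 92.8 at 6 h and 37.4 to 51.5 at 12 h, against 70.9 to 82.1 in controls, and no T or B cell marker passed. In the macrophage, stellate, T cell and B cell sets the 12 h sums lay wholly below the controls while the 6 h sums overlapped them. The endothelial, cholangiocyte and pancreatic acinar sums overlapped the controls at both times, and none of their markers passed. The part of blood and other cells in the values of the mitochondrial ribosomal protein genes was not tested.

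The precision limits what these values show. The median standard error of a gene was 0.14, and the 95% interval of the change lay within 1.5-fold in either direction for 38 of 67 genes at 6 h, 39 at 12 h and 55 for 12 h against 6 h, so that a p that misses the threshold does not show that a gene did not differ. Of the 67 genes, 66 were detected on all 11 arrays and Mrpl39 on 8. Mrps24, Mrpl38, Mrps34, Mrps12 and Mrpl17 had the brightest probes (log2 12.77 to 12.09) and Mrps15, Mrpl35, Mrps25, Mrpl51 and Mrpl39 the dimmest (7.81 to 5.66), which is a property of the probes as much as of the genes. Among the 24 genes with several kept probes, all probes had the same sign in 14 at 6 h and 17 at 12 h, and none had probes of opposed sign that both reached p under 0.05 before adjustment.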

How the data were processed

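Liver RNA of 11 mice (4 at 6 h, 4 at 12 h, 3 controls; groups from the labels) was measured on an Illumina mouse bead array. The deposited table, not yet normalised, gives a mean bead intensity and a detection p-value per probe and array, which the authors exported with GenomeStudio, per the submitters' processing notes (version not given in the sources used here). A second deposited table holds the authors' normalised intensities of the same arrays, used as an alternative. All per-sample columns were used (0 left out). An array has no read depth, so the number of arrays limits the precision.

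In R 4.3.3, limma 3.58.1 (neqc, offset 16, quantile normalisation; statmod 1.5.0 for block correlations) gave log2 values. Of 45281 probes, 16978 passed the detection filter (p under 0.05 on 3 or more arrays), and the brightest stood for each of 12512 symbols. All 3 groups entered 1 limma fit, with p-values adjusted by Benjamini-Hochberg over all genes and a threshold of 0.05. The script was tested on simulated data.

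Genes named are those that passed, otherwise the 5 of smallest p in each direction, the brightest and dimmest 5 probes, and called genes of the accompanying lists. The members and lists were chosen with earlier results of these data known. Alternatives were another background correction, scaling, filter, probe rule, variance model, weights, chip and replicate blocks, brightness as a covariate, and each array left out. Promoter windows and current symbols come from RefSeq tables (GRCm38.p6).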

Additional observations from a re-analysis of the deposited data

Results flagged for a closer look

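Among the 44 treated groups of 4 arrays examined for the 22 named genes, 2 held an array far from the other 3, by a criterion that flags about 1 in 20 groups by chance. Mrps2 had 8.82 on 6 h array 1, against 8.59 to 8.62 on the other 6 h arrays. Mrpl40 had 9.51 on 6 h array 3, against 9.83 to 9.89 on the others.

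Both Mrpl33 and Mrps22 lay on opposite sides of the control mean at the 2 times on every treated array. For Mrps22 that mean was lowered by control array 2, since the control values were 9.57, 8.98 and 9.61. All treated values of Mrps22 lay within the range of its controls. No share of all genes that meet this rule is given beside these 2. The difference of 12 h against 6 h was -0.50 for Mrpl33 (limma adjusted p = 0.0760) and -0.19 for Mrps22 (limma adjusted p = 0.557), so neither passed.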

How the results depend on the processing

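The median change of the 67 genes kept its sign against control in all 14 other settings and with each of the 11 arrays left out. Relative to all genes it ran from -0.08 to -0.18 at 6 h in those settings, the weakest with every probe on its own. Median centring moved the median of all genes to 0.12 at 6 h, -0.11 at 12 h and -0.21 for 12 h against 6 h, and that of the 67 genes to -0.012, -0.29 and -0.28. Against that shift the 67 genes were at -0.13, -0.19 and -0.06. With median centring 35 of the 67 genes were below 0 at 6 h and 60 at 12 h.

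The count of genes that passed, 0 in each comparison, changed with the variance model and the scaling. With no background correction it was 2 at 6 h, 3 at 12 h and 1 for 12 h against 6 h, where 2.17%, 3.51% and 2.29% of all genes passed. With a variance that was trended and robust it was 1, 3 and 1 (1.93%, 3.56% and 2.01% of all genes). Brightness as a covariate gave 4 at 6 h (Mrpl20, Mrpl52, Mrpl53 and Mrps25; 4.09% of all genes) and 1 for 12 h against 6 h (1.38%). At 12 h it was 4 where only both groups compared entered the fit (5.59% of all genes), 4 with array weights (5.94%), 1 with the stricter detection filter (3.32%) and 1 with the chip as a random block (3.71%). For 12 h against 6 h it was 2 with median centring (6.8%) and 1 with the stricter filter (2.04%). The causes were not tested. With 1 array left out, the count ran from 0 to 2 at 12 h and stayed at 0 in the other comparisons, and the medians ran from -0.20 to -0.10 at 6 h, -0.22 to -0.17 at 12 h and -0.10 to 0.02 for 12 h against 6 h. Under median centring, Mrps28 and Mrps10 turned to -0.078 and -0.055 for 12 h against 6 h, and D10Ertd322e to -0.11 at 12 h. D10Ertd322e also turned to -0.057 with brightness as a covariate and ran from -0.045 to 0.076 with 1 array left out. At 6 h 4833424P18Rik turned to -0.017 with the mean of its probes and -0.00093 with the chip as a fixed block, and ran from -0.095 to 0.078 with 1 array left out.

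The labels state no link between same-numbered arrays beyond the number, though some of these arrays also share a chip. Their correlations were -0.18 to 0.27 between treated and control arrays, and 0.00 to 0.45 between 12 h and 6 h arrays. The highest, 0.45, was between the 6 h and 12 h arrays numbered 4, which lay on the same chip. With the replicate block, 0 genes passed in each comparison, and the medians were -0.16 at 6 h, -0.20 at 12 h and -0.04 for 12 h against 6 h.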
